A study of Sus scrofa with 6 samples.

Results

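Plasma carrier proteins bind hormones, vitamins and lipids in the blood, and most of them are made by hepatocytes. The genes described here are 10 carriers of fetal and adult plasma, listed as AFP, ALB, GC, TTR, RBP4, SERPINA7, SERPINA6, AHSG, TCN1 and TCN2. Each was looked up by its gene symbol in the array's annotation, and of several transcript clusters of a gene the one with the strongest mean signal was taken. Of the 10 genes, 7 were found, with 1 cluster each among the 25385 tested, and GC, TTR and AHSG were not found by symbol. AFP, SERPINA7 and TCN1 had been chosen for their difference on these same arrays, so their values are given as a description without a test. The other 4 found members, ALB, RBP4, SERPINA6 and TCN2, complete the families and were tested.

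The samples were liver pieces of adult male pigs of the German landrace breed, taken 1 day after extended partial hepatectomy (ePHx), the surgical removal of most of the liver. Every animal of both groups had this operation. The control group was given the vehicle alone, and the MSC group was given porcine bone marrow mesenchymal stromal cells, which by the methods had been turned towards a hepatocyte-like state in culture and were infused through a central vein. Each group had 3 Affymetrix Porcine Gene arrays, which by the methods came from different animals, and they are called control 1 to 3 and MSC 1 to 3 here. No liver without resection was among these arrays, so neither group gives a level before surgery.

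Albumin and alpha-fetoprotein (AFP) are related proteins of neighbouring genes, and AFP takes the part of the main plasma protein in the fetus before its gene is largely silenced around birth. Thyroxine-binding globulin (SERPINA7) and corticosteroid-binding globulin (SERPINA6) are serpins that carry hormones instead of inhibiting proteases, and RBP4 carries retinol out of the liver. Transcobalamin (TCN2) delivers vitamin B12 to cells, whereas haptocorrin (TCN1) binds it in secretions, plasma and the granules of neutrophils.

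All values are RMA signals on the log2 scale, so a difference of 1 is a doubling, and differences are MSC minus control. The arrays were alike in their median signal, at 6.51 to 6.59. A level of 8.18, the 95th percentile of 23 antigenomic probe sets that match no pig gene, served as the background level. A mean above it was found for 5627 clusters (22.2%). The median of these probe sets was only 3.80 to 4.08 on the arrays, so a signal below 8.18 is not by itself an absent one. The study's own threshold was used for calls (limma, p below 0.05 before adjustment and a difference of 0.5 or more in either direction). It was passed by 692 clusters, of which 314 (1.24%) were higher and 378 (1.49%) lower in MSC. With each array centred on its median instead, 384 were higher and 305 lower. After Benjamini-Hochberg adjustment limma called 0 clusters, with a lowest adjusted p of 0.176, while 1662 clusters (6.55%) had an unadjusted p under 0.05. The methods' t-test, with its own limit of more than 2-fold, called 32 (0.126%). All p-values measure the spread between the arrays of a group. In pieces of whole tissue, fewer cells of a type and less RNA per cell cannot be told apart.

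AFP read higher on each MSC array than on any control array. In the order of their numbers, the control arrays read 4.03, 4.13 and 4.35 and the MSC arrays 6.48, 4.57 and 6.07. MSC 1 and MSC 3 stood well above the controls, while MSC 2 lay only 0.22 above the highest of them. The mean was 4.17 ± 0.16 (SD, n = 3) in control and 5.71 ± 1.00 (SD, n = 3) in MSC, a difference of 1.54 or 2.90-fold. Without MSC 1 it was 1.15 and without MSC 2 it was 2.10. The gene lies on chromosome 8 and was read by 29 probes, and both group means were below the background level. On control 1 its signal lay below the antigenomic median of that array, 4.07. These medians were 4.02 on control 2, 3.84 on control 3 and 4.08 on MSC 2. The fold is thus taken from control signals near those of probe sets that match no pig gene.

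ALB, the adult counterpart of AFP on the same chromosome, varied little between arrays. Its signal was 13.55, 13.46 and 13.49 on the control arrays and 13.56, 13.51 and 13.63 on the MSC arrays. The groups overlapped, and the whole spread over the 6 arrays was 0.16. The strongest signal of any cluster was 14.13 to 14.24 on the 6 arrays, so ALB was read near the top of the scale, and how far this narrows its differences was not tested. The mean was 13.50 ± 0.04 (SD, n = 3) in control and 13.57 ± 0.06 (SD, n = 3) in MSC. The difference was 0.06, with a 95% interval from -0.19 to 0.32 (limma, adjusted p = 0.896), and the exact two-sided permutation test over the arrays gave p = 0.2, where 0.1 is the smallest p that 3 against 3 arrays allow.

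**Figure D1:**
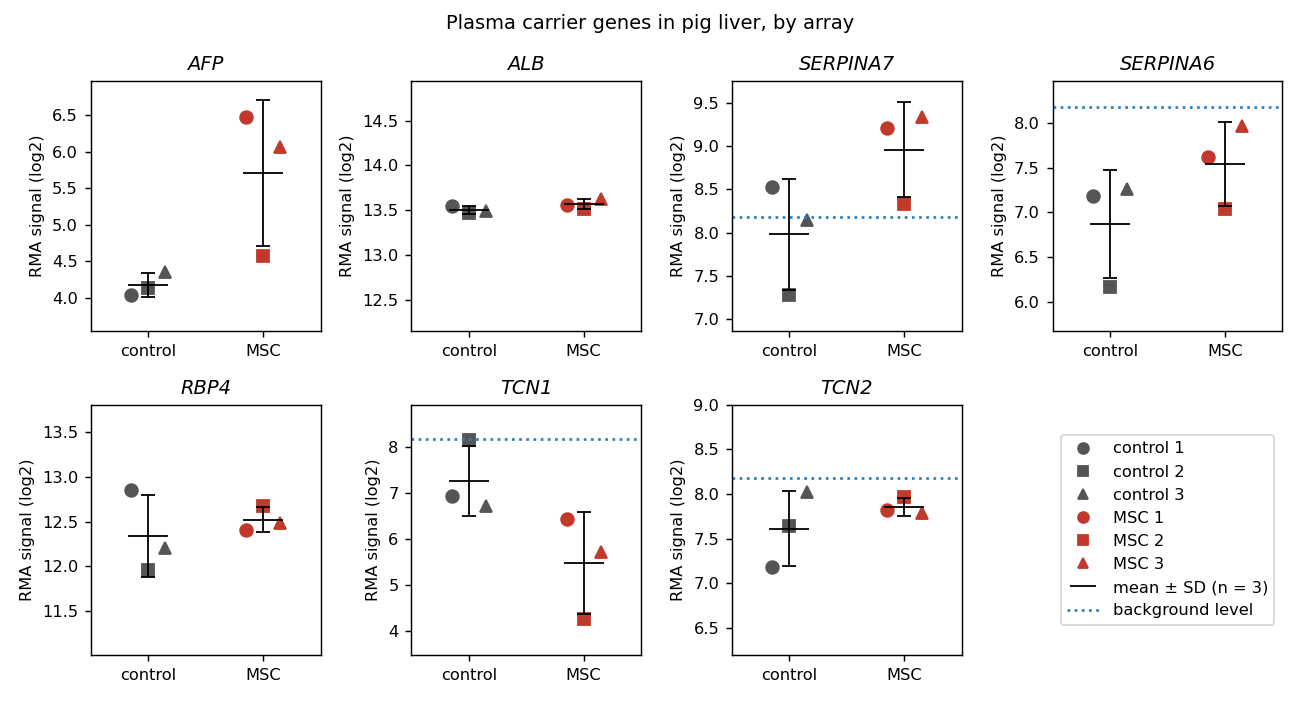
RMA signal (log2) of the 7 carrier genes found on each array, with the mean ± SD (n = 3) of each group; each panel has its own signal range, and the dotted line is the background level of 8.18 where it falls within the panel. The 3 MSC values of AFP lie above and those of TCN1 below all control values, and for the other 5 genes the groups overlap.

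2 further entries of the albumin gene cluster lie next to AFP on chromosome 8 and were read because of that position. AFM, which encodes the vitamin E and Wnt carrier afamin, rose 2.02-fold. Its signal was 10.57, 8.89 and 9.40 on the control arrays and 11.07, 10.14 and 10.69 on the MSC arrays. The groups overlapped, since control 1 lay above MSC 2. The difference was 1.01 with a 95% interval from 0.04 to 1.98 (limma, unadjusted p = 0.0423, adjusted p = 0.746). It no longer passed without control 2 (0.65), control 3 (0.90), MSC 1 (0.79) or MSC 3 (0.98). The entry SSC.18085, annotated with an albumin N-terminal domain at chr8:73845264-73872872 on the plus strand of Sscrofa10.2, read 9.14, 7.74 and 8.47 in control and 10.10, 8.54 and 8.68 in MSC. Its difference was 0.66 (limma, adjusted p = 0.786), and MSC 2 and MSC 3 both lay below control 1. It was 0.16 without MSC 1, 0.30 without control 2 and 1.00 without control 1. MSC 1 was the highest array for AFP, AFM and this entry, whereas MSC 3 was the highest for ALB. Over the 29 carrier rows described below, these included, MSC 1 was the highest in 13.

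SERPINA7, the thyroxine carrier, had a higher mean in MSC, but its groups were not apart. Its signal was 8.53, 7.27 and 8.14 on the control arrays and 9.21, 8.32 and 9.34 on the MSC arrays. Control 1 lay above MSC 2 by 0.20, and control 2 was the lowest of all. The mean was 7.98 ± 0.64 (SD, n = 3) in control and 8.96 ± 0.55 (SD, n = 3) in MSC, a difference of 0.98 or 1.97-fold. The control mean lay below and the MSC mean above the background level. Leaving out control 2 brought the difference down to 0.62, and leaving out MSC 2 brought it up to 1.29. The annotated transcript lies at chrX:101067043-101072645 on the minus strand of Sscrofa10.2.

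SERPINA6, the cortisol carrier of the same protein family, did not pass the threshold. Its signal was 7.18, 6.17 and 7.26 on the control arrays and 7.62, 7.04 and 7.97 on the MSC arrays. As for SERPINA7, control 2 was the lowest array, MSC 2 the lowest of the MSC arrays and MSC 3 the highest. The mean was 6.87 ± 0.61 (SD, n = 3) in control and 7.55 ± 0.47 (SD, n = 3) in MSC, both below the background level. The difference was 0.67 with a 95% interval from -0.10 to 1.45 (limma, unadjusted p = 0.0794, adjusted p = 0.763; exact permutation p = 0.3). It passed without MSC 2, at 0.93, and was 0.32 without control 2. The annotated transcript lies at chr7:122544966-122563955 on the minus strand of Sscrofa10.2.

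RBP4, the retinol carrier, did not pass either. Its signal was 12.85, 11.96 and 12.21 on the control arrays and 12.40, 12.68 and 12.49 on the MSC arrays. The 3 MSC values lay inside the range of the controls, whose highest and lowest arrays were control 1 and control 2. The mean was 12.34 ± 0.46 (SD, n = 3) in control and 12.52 ± 0.14 (SD, n = 3) in MSC, both above the background level. The difference was 0.18 with a 95% interval from -0.34 to 0.70 (limma, adjusted p = 0.859; exact permutation p = 0.5). It was -0.0084 without control 2 and 0.44 without control 1. The annotated transcript lies at chr14:114769059-114776317 on the minus strand of Sscrofa10.2.

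TCN1, haptocorrin, was the only found member with a lower mean in MSC. Its signal was 6.94, 8.14 and 6.71 on the control arrays and 6.44, 4.27 and 5.72 on the MSC arrays. All MSC arrays lay below all controls, by 0.27 at the nearest pair, and the extremes were control 2 and MSC 2. The mean was 7.26 ± 0.77 (SD, n = 3) in control and 5.47 ± 1.11 (SD, n = 3) in MSC, a difference of -1.79, or 3.45-fold lower. Without MSC 2 the difference was -1.18, and without MSC 1 it was -2.27. Both means were below the background level, and the 4.27 of MSC 2 lay near the antigenomic median of that array, 4.08. The cluster, on chromosome 2, has 24 probes within 469 bases of the annotation and was drawn from a cDNA clone of colon.

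TCN2, the transcobalamin that hands vitamin B12 to cells, did not pass the threshold. Its signal was 7.18, 7.64 and 8.02 on the control arrays and 7.82, 7.97 and 7.78 on the MSC arrays. The MSC values lay within the range of the controls. The mean was 7.61 ± 0.42 (SD, n = 3) in control and 7.86 ± 0.10 (SD, n = 3) in MSC, again both below the background level. The difference was 0.24 with a 95% interval from -0.23 to 0.72 (limma, adjusted p = 0.806; exact permutation p = 0.5), and it was 0.03 without control 1 and 0.45 without control 3.

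Of the 4 tested members, 0 passed the threshold, where 2.73% of all clusters did. Limma gave 0 of the 4 an unadjusted p under 0.05, and the methods' t-test called 0. AFP and TCN1 were the 2 of 7 found members whose groups did not overlap, against 11.6% of all clusters (5.64% with all MSC arrays above and 5.96% with all below the controls), and both had been chosen for this difference. The mean was higher in MSC for 6 of the 7 members, among them all 4 tested ones, where 46.7% of all clusters and 67.2% of the 2857 named genes above the background level had a difference above 0.

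**Figure D2:**
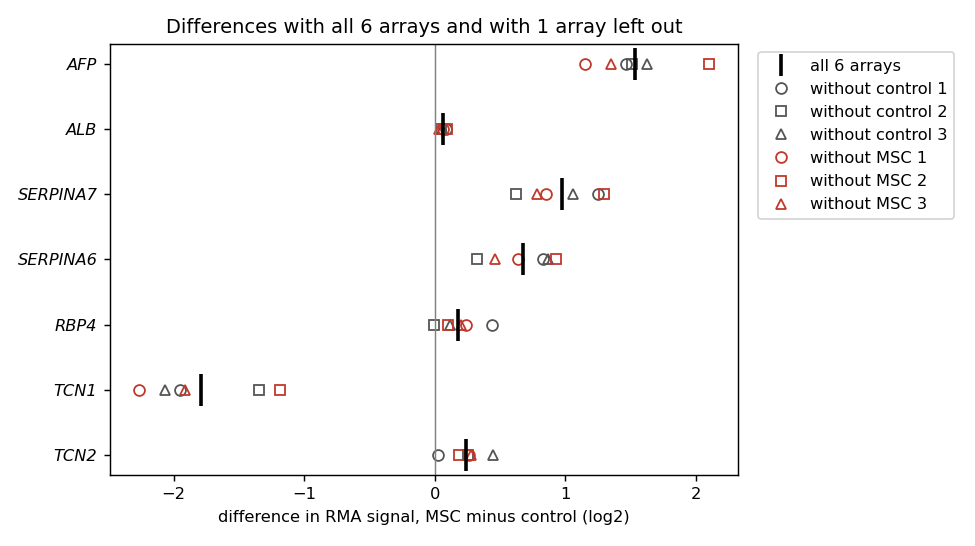
Difference in RMA signal (log2, MSC minus control) of the 7 carrier genes with all 6 arrays (vertical bar) and with 1 array left out (open symbols). AFP ranges from 1.15 to 2.10 and TCN1 from -2.27 to -1.18, RBP4 reaches -0.0084 without control 2, and SERPINA7 and SERPINA6 are smallest without control 2, at 0.62 and 0.32.

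AHSG, the gene of fetuin-A, has no entry of that symbol, but 2 clusters on chromosome 13 carry the name FETUIN. The annotation does not say whether they read AHSG or FETUB, the gene of the related fetuin-B, so they are given under their own name. The first, with 17 probes, read 13.14, 12.60 and 12.85 on the control arrays and 13.21, 12.86 and 13.19 on the MSC arrays. The second, with 28 probes and marked as prone to cross-hybridization, read 12.46, 11.91 and 12.24 on the control arrays and 12.64, 12.23 and 12.60 on the MSC arrays. In both clusters the groups overlapped, control 2 was lowest and MSC 1 highest. Both are annotated with the same cDNA, so they are not independent readings, and each is counted as a row below. The differences were 0.22 with a 95% interval from -0.18 to 0.63 (limma, adjusted p = 0.799) and 0.29 with an interval from -0.13 to 0.71 (limma, adjusted p = 0.771). Without control 2 they were 0.089 and 0.14. HRG and KNG1 encode the plasma proteins histidine-rich glycoprotein and kininogen on the same chromosome, both of the cystatin superfamily like the fetuins. HRG rose 1.71-fold, from 10.79 ± 0.44 to 11.57 ± 0.50 (SD, n = 3 each), with overlapping groups (limma, unadjusted p = 0.0310, adjusted p = 0.737). It no longer passed without control 2 (0.53), control 3 (0.84), MSC 1 (0.52) or MSC 2 (0.79). KNG1 differed by 0.16 (limma, adjusted p = 0.896).

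The list of other plasma carriers held 23 genes, of which 19 were measured. HRG and AFM rose, 0 fell and 17 did not pass, where 1.53% of the named genes rose and 1.08% fell. The median difference of the list was 0.17, against -0.01 over all clusters, of which only 22.2% were above the background level. In lists mostly above that level, the median was 0.06 for hepatocyte, 0.14 for acute phase and 0.16 for macrophage markers. A higher mean in MSC was found for 16 of the 19, where 67.2% of the named genes above the background level had one. On the other side, 3 had a lower mean, and each of the 19 is drawn by array in the heat map of carriers. The same arrays were often the lowest and the highest across carriers. Over the 29 rows made of the members, the 2 FETUIN clusters, SSC.18085 and the other carriers, control 2 was the lowest array in 15 and MSC 1 the highest in 13. Over all clusters, control 2 was lowest in 21.1% and MSC 1 highest in 13.8%. Most clusters were below the background level, unlike most carriers. Of the lists described below, control 2 was also lowest for 7 of 16 hepatocyte markers and 10 of 18 regulators of AFP and albumin. Among the 7 members control 2 was lowest for ALB, RBP4, SERPINA7 and SERPINA6.

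**Figure D3:**
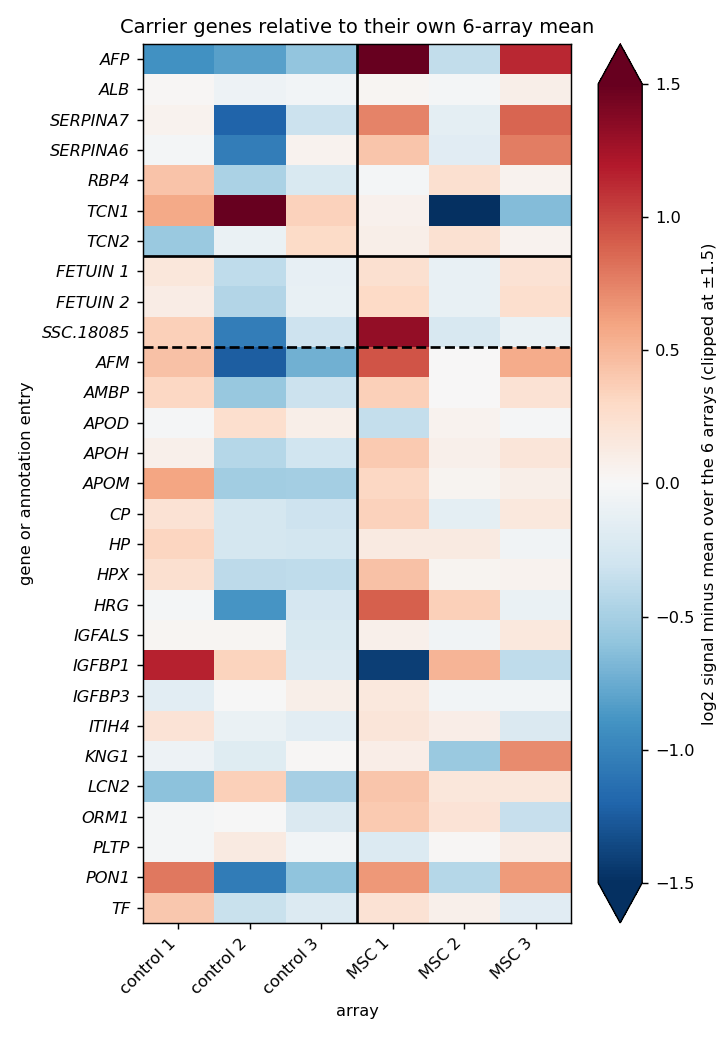
Log2 signal of each gene or annotation entry minus its own mean over the 6 arrays (colour, clipped at ±1.5), with the 7 members on top, then the FETUIN clusters and SSC.18085, then the 19 other carriers. Control 2 is the lowest array in 15 of the 29 rows and MSC 1 the highest in 13, and TCN1 has its highest value on control 2.

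Hepatocytes were well represented on every array. All 16 measured hepatocyte markers of 20 listed were above the background level, and their mean signal was 11.83, 11.06 and 11.05 on the control arrays and 11.58, 11.49 and 11.29 on the MSC arrays. Control 1 was thus the highest and control 2 and 3 the lowest, and the summed linear signals of the markers ran from 63197 to 85697 in control and from 66952 to 79244 in MSC. The differences of the single markers ran from -0.95 for PCK1 to 1.32 for TDO2, with a median of 0.06. The mean of the markers was 0.14 higher in MSC. Set relative to it, which lowers the median of all clusters to -0.16, the differences were 1.39 for AFP, -0.077 for ALB, 0.04 for RBP4, 0.84 for SERPINA7, 0.53 for SERPINA6, -1.93 for TCN1 and 0.10 for TCN2. Of these, ALB turned in direction, and how far this rests on single markers was not tested. On this scale 12 of the 19 other carriers had a higher mean in MSC. The part of the hepatocyte share in these differences was not tested.

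Several regulators of the AFP and albumin genes rose. Of 25 listed factors 18 were measured, 8 of them above the background level, and the median difference was 0.30. Of the 18, 4 rose and 0 fell, where 1.53% of the named genes rose and 1.08% fell. A higher mean in MSC was found for 13. This held for 46.7% of all clusters and 67.2% of the named genes above the background level. Relative to the hepatocyte markers, 10 had a higher mean. HNF4A, a nuclear receptor that maintains the hepatocyte programme, read 9.71, 8.75 and 9.26 on the control arrays and 9.91, 9.77 and 10.14 on the MSC arrays. The groups did not overlap, and it rose 1.63-fold (limma, unadjusted p = 0.0183, adjusted p = 0.736). PROX1, a homeobox factor of liver development, rose by 0.56, from 9.42 ± 0.21 to 9.98 ± 0.09 (SD, n = 3 each; limma, adjusted p = 0.736). The pioneer factor FOXA1, of the family that opens the albumin enhancer, rose by 0.53, and ONECUT1, also called HNF6, rose by 0.56 (limma, adjusted p = 0.736 for both). PROX1 did not pass without control 2, HNF4A and FOXA1 did not pass without control 2 or without MSC 3, and ONECUT1 kept passing only where control 1 or MSC 2 was the array left out. Without control 2 the differences were 0.46 for HNF4A, 0.46 for PROX1, 0.36 for FOXA1 and 0.37 for ONECUT1. The groups also did not overlap for FOXA2 (0.38) and FOXA3 (0.45), named here after their values had been seen, so that 5 of 18 regulators had all MSC arrays above all controls, against 5.64% of all clusters. Both group means of FOXA2 and FOXA3 and the control mean of FOXA1 were below the background level.

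ZFHX3, known as a repressor of AFP, did not pass and differed by 0.10 (limma, adjusted p = 0.866). ZHX2 and ZBTB20, which keep AFP low in the adult mouse liver, were not matched by symbol.

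Other genes of the fetal liver did not pass. Of 17 listed genes 7 were measured, 0 rose and 0 fell, the median difference was 0.04, and 0 of the 7 were above the background level. MEST, an imprinted gene of fetal growth, differed by 0.47 (limma, adjusted p = 0.757), and DLK1, a surface protein of hepatoblasts, by -0.20 (limma, adjusted p = 0.780). H19 and IGF2, which are silenced in the liver together with AFP in the mouse, were not matched. Markers of liver progenitor cells and bile ducts, cells that can express AFP in an injured liver, were read beside these genes. Of 8 measured markers 0 rose and 2 fell, where 1.53% of the named genes rose and 1.08% fell. The median difference was -0.39, and 6 had a lower mean in MSC. A higher mean was found for 46.7% of all clusters and 67.2% of the named genes above the background level. CFTR, a chloride channel of bile duct cells, fell by 0.94 and EPCAM, an adhesion protein of bile duct and progenitor cells, fell by 0.77 (limma, adjusted p = 0.736 for both). CFTR passed without each array in turn, and EPCAM kept passing only where control 1 or MSC 2 was the array left out. Both group means of EPCAM and the MSC mean of CFTR were below the background level. The part of these cells in the AFP values was not tested.

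**Figure D4:**
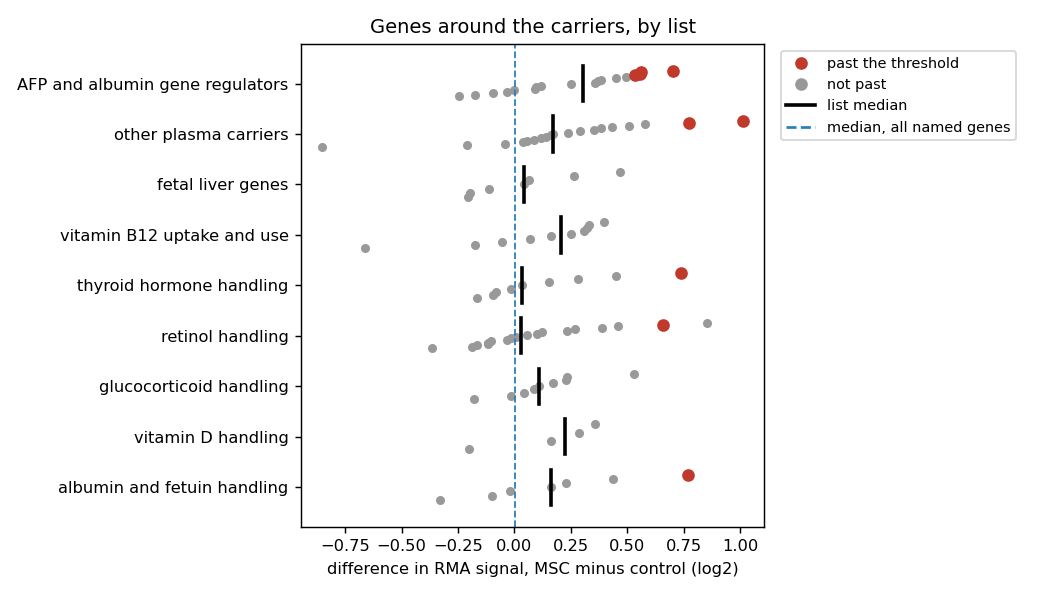
Difference in RMA signal (log2, MSC minus control) of each measured gene in 9 lists of genes around the carriers, with the median of each list (black bar) and of all named genes (dashed line); red points passed the threshold. The regulators of AFP and albumin have the most genes past the threshold, 4 of 18, and 0 genes passed in the lists of fetal liver genes and of vitamin B12, glucocorticoid and vitamin D handling.

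The genes that take up and use what the carriers bring were mostly not past the threshold. For this list and all lists below, the shares to compare with are the 1.53% of named genes that rose and the 1.08% that fell. Of the vitamin B12 list, which follows the vitamin from its receptors to its enzymes, 10 of 15 genes were measured, 0 rose and 0 fell, and the median difference was 0.21. LMBRD1, which exports vitamin B12 from the lysosome, differed by 0.40 (limma, unadjusted p = 0.0461, adjusted p = 0.757), MTR, the methionine synthase that uses it, by 0.32 (limma, adjusted p = 0.763) and MMACHC, its intracellular chaperone, by 0.33 (limma, adjusted p = 0.767). The receptors CUBN and CD320 were not matched by symbol.

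Neutrophils, which store TCN1 in their granules, left low signals. Of 22 listed markers 12 were measured, 0 of them above the background level, and LTF, MMP8 and CAMP, which mark the same granules, were not matched. S100A8, an abundant cytosolic protein of neutrophils, fell by 0.80 (limma, unadjusted p = 0.0379, adjusted p = 0.739), the other 11 did not pass, and the median difference was -0.11. S100A8 kept passing only where control 3 or MSC 2 was the array left out, and it differed by -0.45 without MSC 3. The summed linear signal of the list ran from 1142 to 1770 in control and from 960.2 to 1401 in MSC. The mean signal of the list was 6.41, 6.82 and 6.44 on the control arrays and 6.43, 6.58 and 6.03 on the MSC arrays. Control 2 was thus highest for this list as for TCN1, whereas MSC 3 was the lowest for the list and MSC 2 the lowest for TCN1. The part of neutrophils in the TCN1 values was not tested.

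Of the retinol list, 18 of 26 genes were measured, 1 rose, 0 fell and the median difference was 0.03. BCO2, a mitochondrial enzyme that cleaves carotenoids, rose by 0.66 (limma, adjusted p = 0.736), and it kept passing only where control 1 or MSC 2 was the array left out. LRAT, which esterifies retinol for storage, differed by 0.46 (limma, unadjusted p = 0.0495, adjusted p = 0.757). The group means of BCO2 and LRAT were below the background level. Of the thyroid hormone list, 9 of 14 genes were measured, 1 rose, 0 fell and the median difference was 0.03. SLC16A10, a transporter of aromatic amino acids and thyroid hormones, read 6.96, 6.41 and 6.74 on the control arrays and 7.16, 7.32 and 7.85 on the MSC arrays. Its groups did not overlap, it rose by 0.74 (limma, unadjusted p = 0.00935, adjusted p = 0.736), and it passed without each array in turn. Both of its group means were below the background level. THRB, the main thyroid hormone receptor of the liver, differed by 0.45 (limma, unadjusted p = 0.0221, adjusted p = 0.736), with all MSC arrays above all controls. Its group means were below the background level too. On the MSC arrays the order of SERPINA7, with MSC 3 highest and MSC 2 lowest, was not that of SLC16A10, whose lowest was MSC 1.

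Of the glucocorticoid list 9 of 16 genes were measured, 0 rose, 0 fell and the median difference was 0.11. NR3C1, the glucocorticoid receptor, differed by 0.23 (limma, adjusted p = 0.771), and TAT, a hepatic enzyme induced by glucocorticoids, by 0.53 (limma, adjusted p = 0.773). Of the list for vitamin D, which GC carries in the blood, 4 of 10 genes were measured, 0 rose, 0 fell and the median difference was 0.22. CYP27A1 and CYP2R1, which hydroxylate the vitamin in the liver, differed by 0.36 (limma, adjusted p = 0.793) and 0.28 (limma, adjusted p = 0.814). Of the genes that secrete, recycle or clear albumin and fetuin, 7 of 10 were measured, 1 rose, 0 fell and the median difference was 0.16. CLEC4F, a lectin of Kupffer cells in the mouse that binds desialylated glycoproteins, rose by 0.77 (limma, adjusted p = 0.736), with all MSC arrays above all controls. It did not pass without control 3 or without MSC 3 (0.51), and both of its group means were below the background level. Of 10 measured macrophage markers, TIMD4, also made by Kupffer cells, rose by 0.85 and MSR1 fell by 0.74 (limma, adjusted p = 0.736 and 0.739). TIMD4 passed without each array in turn, whereas MSR1 kept passing only without control 1. The group means of TIMD4 were below the background level and those of MSR1 above it. The markers' summed signals ran from 4714 to 7773 in control and from 6597 to 7208 in MSC, and their part in the CLEC4F values was not tested. HSPA5, the chaperone of the secretory pathway, differed by 0.23 (limma, adjusted p = 0.773).

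The other marker lists were read beside the carriers for the make-up of the tissue. As stated above, limma called 0 clusters after adjustment, with a lowest adjusted p of 0.176. Of 8 endothelial markers, VWF fell by 0.71 (limma, adjusted p = 0.736), 0 rose and the median difference was -0.22. All 8 had a lower mean in MSC. The group means of VWF were below the background level. Of 11 markers of stellate cells and fibroblasts, RGS5 fell by 0.67, 0 rose and the median difference was -0.34. A lower mean in MSC was found for 10 of them and a higher mean for 1. Of 9 acute phase genes, LRG1 rose by 1.03 and 0 fell, with a median difference of 0.14, and of 5 proliferation markers 0 rose and 0 fell, with a median of 0.11. Of the hepatocyte markers, TDO2, the enzyme that opens the ring of tryptophan, rose by 1.32 (limma, adjusted p = 0.736) and 0 fell, with a median of 0.06. Without MSC 3 the difference of TDO2 was 0.85, still past the threshold. On control 1 the endothelial and stellate cell lists had their lowest mean signals, 8.41 and 8.88, where the hepatocyte list had its highest, and on control 2 they had their highest, 9.27 and 9.67. The part of these cells in the carriers' values was not tested.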

How the data were processed

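Gene expression was measured on 6 arrays, 3 control and 3 MSC, grouped by the labels. The authors summarized probe signals with RMA in Affymetrix Expression Console 1.4, and deposited the result on the log2 scale. The values were used unchanged, since RMA had already corrected the background and aligned the arrays. RMA gives no detection call, and the number of arrays limits the precision. A workbook deposited by the authors gave the annotation, and its 6 signal columns, whose names match no sample label, were not used. The sources used here name neither the build of its positions nor scan dates, and positions are printed only for transcripts whose descriptions name Sscrofa10.2.

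Of 27558 probe sets, 25385 main and rescue clusters were tested and 2173 control probe sets were left out. The background level was the 95th percentile of the antigenomic probe sets, averaged over the arrays. MSC was compared with control by limma 3.58.1 in R 4.3.3 (lmFit and eBayes), with Benjamini-Hochberg adjustment over all tested clusters. Exact permutation tests used scipy 1.17.1. The calculation was tested on simulated data. The members and the 17 gene lists were chosen with earlier results of these data known. Symbols updated through current gene tables named 10074 genes, with 1 cluster each. Named were all members, from each list the genes past the threshold, from the lists around the carriers, where fewer than 2 passed, those with the smallest limma p, and 7 regulators and vitamin B12 genes whatever their values, of which 1 is not reported here. The neighbours of AFP, the FETUIN clusters, HRG and KNG1 were named for their position or name. The alternatives left out each array, took the replicate number as a block, centred or quantile normalized again, kept clusters above the background level, used the methods' t-test, array weights, an intensity trend, 1 cluster per gene or the mean of a gene's clusters, and, chosen after seeing the data, set each array relative to the hepatocyte markers. Sequences of the members were not used here.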

Additional observations from a re-analysis of the deposited data

How the results depend on the processing

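Leaving out 1 array each gave 1.15 to 2.10 for AFP, 0.034 to 0.092 for ALB, -0.0084 to 0.44 for RBP4, 0.62 to 1.29 for SERPINA7, 0.32 to 0.93 for SERPINA6, -2.27 to -1.18 for TCN1, 0.028 to 0.45 for TCN2 and -0.15 to 0.48 for KNG1. RBP4 turned to -0.0084 without control 2, KNG1 to -0.15 without MSC 3, and ALB to -0.077 relative to the hepatocyte markers. SERPINA6 passed the threshold without MSC 2 (0.93), with array weights (0.75) and with the block on replicate numbers (0.67), each of which took the count of tested members past it from 0 to 1. The 692 clusters past the threshold were out of 25385 tested. Over the same clusters, leaving out control 1 raised the count to 2215 and leaving out MSC 2 to 1240. Leaving out control 2 lowered it to 445. Array weights gave 1565, the replicate block 834 and the methods' t-test, with its own limit on the fold, 32. The filter on the background level left 5627 clusters, of which 188 passed, and 1 cluster per gene left 10074, of which 261 passed. The counts of 188 and 261 thus have a smaller base than the 692. Same-numbered control and MSC arrays deviated together with r of -0.016, 0.25 and -0.085, and not every array was closest to its own number. With 3 arrays in a group, these values cannot tell whether same-numbered arrays shared a processing order. The labels name no pairing of animals. AFP, SERPINA6, TCN1 and TCN2 had a mean under the background level, so the filter on it gave no value for them, and low signal limits what these 4 can show. Apart from the smaller base of the 188 and 261, why the values moved was not tested.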
